A study of Mus musculus with 6 samples.

Results

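The probes described here detect the microRNAs (miRNAs) of the Sfmbt2 intron cluster and their relatives elsewhere in the mouse genome. They were chosen by name alone, as every probe whose name starts with mmu-miR-297, mmu-miR-466, mmu-miR-467 or mmu-miR-669, and they number 44 of the 599 mouse miRNA probes on the array. Of these, 4 are miR-297, 17 miR-466, 11 miR-467 and 12 miR-669 probes. Mouse kidney aSMCs, which are smooth muscle cells of arterioles kept as a primary line descended from renin cells, were grown and harvested independently 6 times, at passage 7 and on a mixed 129Sv/C57Bl6 background. The 3 forskolin cultures were given 10 µM forskolin, which activates adenylyl cyclase, and 100 µM IBMX, which blocks the breakdown of cyclic AMP, for 24 h, and then 10 µM forskolin again for a last 30 min. No agent was given to the 3 control cultures, and the labels name no vehicle. All 6 cultures come from 1 line, and forskolin and IBMX were given together, so the action of either agent alone was not measured.

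Sfmbt2 encodes a Polycomb group protein, and the gene is imprinted in the mouse, with the paternal copy expressed in the trophoblast of the placenta. One of its introns carries a miRNA array that expanded by repeated duplication in rodents, and the resulting hairpins give mature strands that resemble each other closely. The cluster is best known from mouse embryonic stem cells and placenta, where its miRNAs are abundant. A miRNA recognises its targets mainly through its seed, bases 2 to 8 from the 5′ end, so strands with the same seed are thought to share many targets.

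By name, 42 of the 44 probes matched miRNA genes in RefSeq (GRCm38.p6), and these were 69 genes in all. Of the 69 genes, 61 lie inside the bounds of Sfmbt2 on chromosome 2 and 8 lie elsewhere. For 31 probes every matching gene lies inside Sfmbt2, for 6 every one lies elsewhere, and 5 probes have genes in both places. The miR-467a probe matches 10 hairpin genes and the miR-669a probe matches 12, so a signal there cannot be assigned to one copy. miR-669c matches 1 gene. Both miR-466a probes matched no gene name.

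The sequences that follow belong to the probes that exceeded the dimmer 50% of the miRNA probes on all forskolin arrays, to which the results below return. They are the target strands listed with the array, 5′ to 3′, with the seed in capitals.
miR-669c: aUAGUUGUguguggaugugugu
miR-467a: uAAGUGCCugcauguauaugcg
miR-467b: gUAAGUGCcugcauguauaug
miR-467a*: aUAUACAUacacacaccuacac
miR-669a: aGUUGUGUgugcauguucaugu
miR-466a-3p: uAUACAUAcacgcacacauaaga
miR-466b-3-3p: aAUACAUAcacgcacacauaaga
The star marks the strand named as passenger in the array's older naming. miR-467a and miR-467b share a run of 20 bases, but miR-467b starts 1 base earlier and its seed is shifted. miR-466a-3p and miR-466b-3-3p share a run of 22 bases and the same seed. The longest run that miR-669c shares with any other of the 44 is 11 bases, with miR-669a. Of the 44 targets, 21 hold a run of 18 or more bases in common with another of them, so those probes are not independent measurements. The longest run shared with any other probe of the array is 11 bases.

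The 44 targets hold 27 different seeds, 10 of which are shared by at least 2 probes, 27 probes in all. The largest seed group, AUACAUA, has 5 probes, which are miR-466a-3p, miR-466b-3-3p, miR-466d-3p, miR-467g and miR-297a*. The seed AUGUGUG is held by 4 probes, the 5p strands of miR-466a, miR-466b, miR-466c and miR-466e, and also by miR-1187, which is not of the cluster. The seed UAUACAU joins miR-467a*, miR-467b* and miR-467e*. The seed of miR-467a, AAGUGCC, is the seed of miR-290-3p and miR-292-3p as well, 2 strands of a cluster of embryonic stem cells.

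Many of the targets, though not all, hold an alternating repeat, and those of miR-467a and miR-467b hold neither of the repeats counted here. UGUGUG occurs in 19 of the 44 (43.2%) and in 28 of all 599 probes (4.67%), and its reverse complement CACACA in 16 (36.4%) and in 21 of all 599 (3.51%). Both motifs were searched on the target strand as listed, and none of the 44 targets holds both. In 26 targets G and U make up more of the bases than A and C, and in the other 18 A and C do. Of the 6 probes whose target equals a RefSeq mature strand (GRCm38.p6), 2 are among the 10 clearest by signal, and both come from outside Sfmbt2.
miR-467f, chr11:69635419-69635439, minus strand: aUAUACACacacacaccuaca
miR-466j, chr10:60960802-60960824, plus strand: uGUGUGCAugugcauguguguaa

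Each probe was spotted 5 times on each array, and its level over background is the mean of its spots less the mean of the empty spots of that array. A probe is called detected where that difference exceeds 3 SD of the empty spots. The dyes were unbalanced, with 1 Cy3 and 2 Cy5 arrays among the forskolin samples and 2 Cy3 and 1 Cy5 among the controls. Empty spots averaged 32.6, 192 and 34.9 in forskolin samples 1 to 3, and 131, 31.6 and 200.1 in control samples 1 to 3, high in Cy3 and low in Cy5. Of all 599 probes, 175, 585 and 197 were detected in the forskolin samples and 162, 166 and 225 in the controls. Forskolin sample 2 stands apart, because its empty spots had an SD of 7.07, against 14.3 in each of the other 2 Cy3 samples, and its median probe of all 599 lay 4.91 SD over them. Results are therefore also given with the dimmer 50% of the miRNA probes of each array as background, or without that sample. The smooth muscle markers miR-143 and miR-145 were detected in all 6 samples. The 2 endothelial and 5 epithelial marker probes were detected in forskolin sample 2 only, and of the 4 blood markers all were detected there and 1 in control sample 2. The 2 kidney tubule markers, miR-192 and miR-194, were both detected in 3 forskolin samples and in 1 control sample, and their part in the results was not tested. Precision is limited by having 6 samples, each called an array here. Samples of the same number carried opposite dyes and shared stray spots, as described below. They may therefore have been on the same slide, which the labels do not say, and the fit reported treats them as independent. In bulk RNA fewer cells of a type and less RNA per cell cannot be told apart.

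Most of the cluster was not well above background in these cells. miR-669c and miR-467a, 2 of the 44 probes (4.55%), exceeded the empty spots by 3 SD on all 3 forskolin arrays, and miR-669c alone did so on all 3 control arrays. Of all 599 probes, 27.9% passed on all forskolin arrays and 25.2% on all control arrays. By sample, 3, 43 and 13 of the 44 probes were detected in forskolin samples 1 to 3, and 1, 3 and 15 in control samples 1 to 3. With the dimmer 50% of the miRNA probes as background the counts were 8, 8 and 16 in forskolin samples and 3, 2 and 12 in controls. The same background gave 216, 183 and 224 of all 599 probes in forskolin samples and 181, 153 and 210 in controls. On that background the sample numbered 3 had the highest count in each group, for the cluster and for all probes alike. Over the empty spots forskolin sample 2 had the highest count of the forskolin samples.

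**Figure D1:**
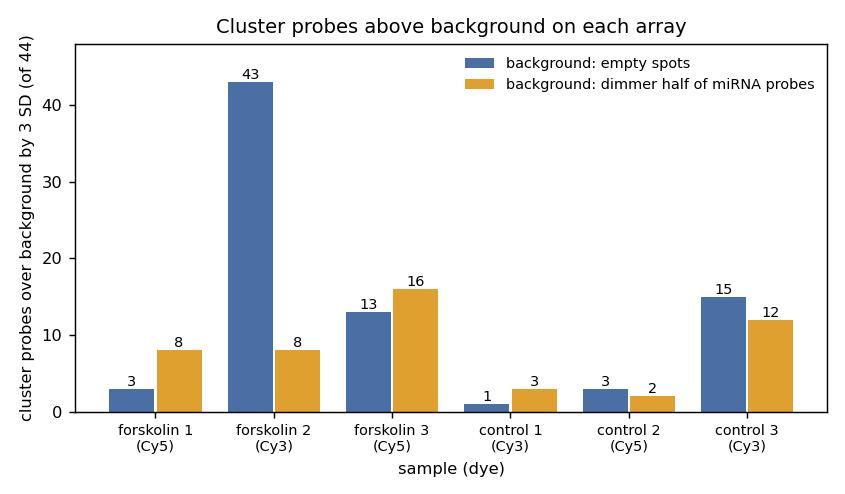
Number of the 44 cluster probes over background by 3 SD on each array, with the empty spots (blue) or the dimmer 50% of the miRNA probes (orange) as background. Forskolin sample 2 had 43 probes over its empty spots and 8 over its dimmer probes.

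Leaving out forskolin sample 2, 27 of the 44 probes were detected on none of the 5 remaining arrays, 5 on 1 array and 9 on 2. miR-466l, miR-466e-5p, miR-669k, miR-467g and miR-669h-3p had the lowest median signals of all, between 0.326 and 0.448 SD over the 6 samples. Of the 11 probes of miR-467, 6 were detected on 2 or more of the 6 arrays, against 7 of 17 of miR-466, 3 of 12 of miR-669 and 1 of 4 of miR-297. Forskolin sample 2, where 43 of the 44 probes passed, is included in these counts and in those by base composition. The miR-297 probe, miR-297b-5p, passed in forskolin sample 3 and control sample 3 through a stray spot described below. The same was so for miR-466j in forskolin sample 1. By base composition, 7 of the 18 probes rich in A and C and 5 of the 26 rich in G and U were detected on 3 or more arrays. With the dimmer probes of each array as background these counts were 4 of 18 and 4 of 26.

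**Figure D2:**
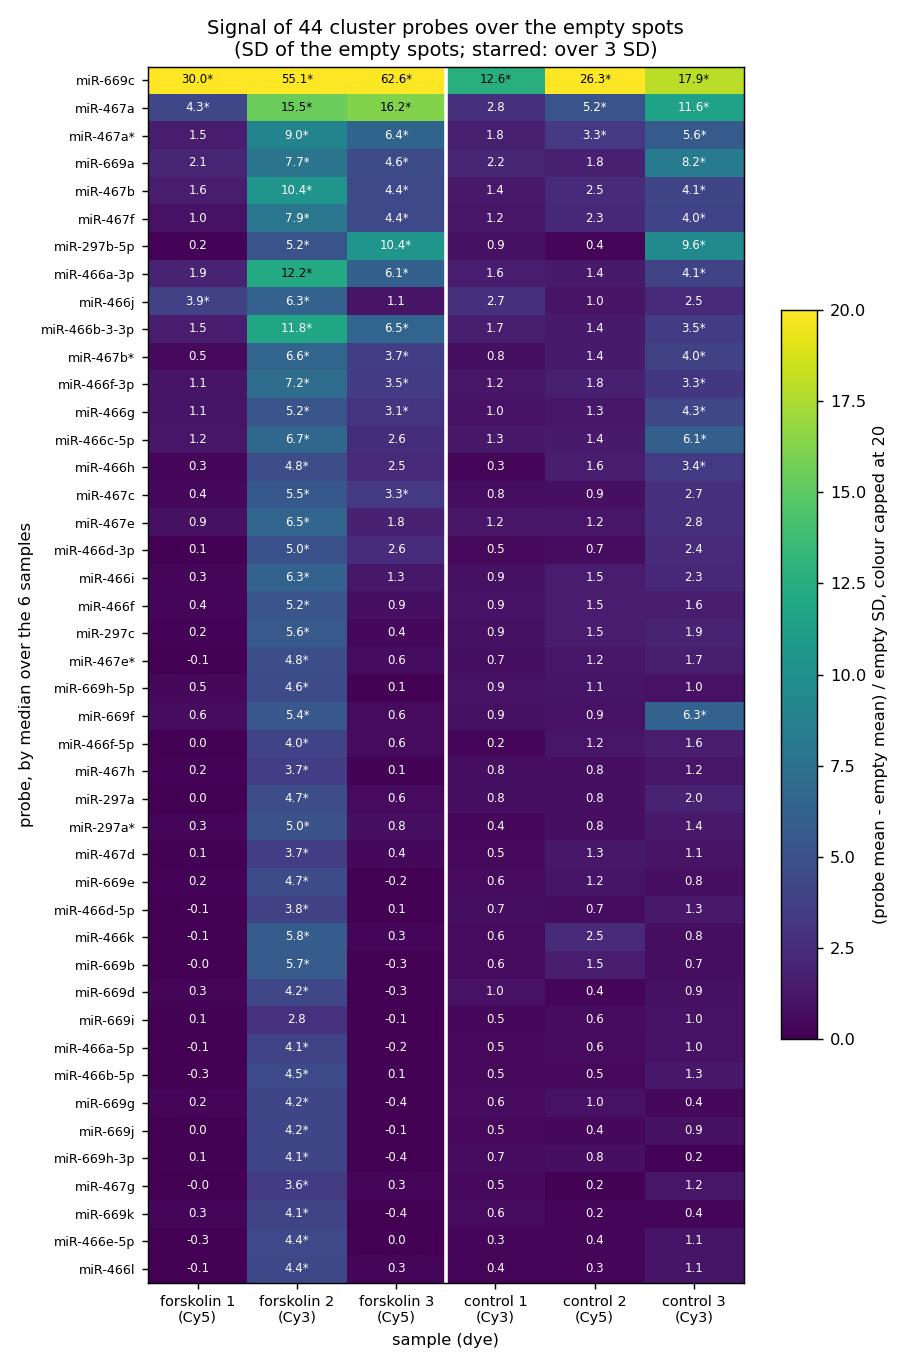
Signal of the 44 cluster probes over the empty spots, in SD of the empty spots, for the forskolin samples (left) and the control samples (right), with probes ordered by their median over the 6 samples. Values over 3 SD are starred, and the colour stops at 20. miR-669c is over 3 SD in all 6 columns, and the column of forskolin sample 2 is raised from top to bottom.

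miR-669c had the clearest signal of the cluster. Over the empty spots it read 137, 390 and 308 intensity units in forskolin samples 1 to 3, against 179, 48.6 and 256 in control samples 1 to 3. The lowest value belongs to the Cy5 control and the highest to the Cy3 forskolin sample, and the groups overlap. In SD of the empty spots the probe stood at 30.0, 55.1 and 62.6 in forskolin samples, against 12.6, 26.3 and 17.9 in controls. On this scale every forskolin sample lay above every control, as was so for 26.9% of the 167 tested probes, and the scale depends on the SD of each array's empty spots. The 5 spots of the probe ranged from 118 to 169 in forskolin sample 1 and from 37.8 to 60.1 in control sample 2, so no single spot carried the signal.

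After normalization between arrays miR-669c did not differ beyond the spread between samples. Its log2 intensity was 8.01, 8.37 and 8.47 in forskolin samples 1 to 3, against 7.77, 8.37 and 7.28 in control samples 1 to 3. Forskolin sample 2 and control sample 2 have the same value, since quantile normalization gives probes of equal rank equal values, and the groups overlap. The means were 8.28 ± 0.24 in forskolin cultures and 7.81 ± 0.55 in control cultures (SD, n = 3 each). With a term for the dye, limma put the log2 fold change at 0.36 (SE 0.31, adjusted p = 0.619). This is a 1.28-fold difference with a 95% interval from 0.771 to 2.12, and that interval includes no change. The forskolin sample was higher in 2 of the 3 pairs with the same replicate number.

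Within the 2 dyes the miR-669c difference had opposite signs, each with a lone sample in 1 group and so with no test. Among the Cy5 samples the mean was 8.24 in the 2 forskolin samples, against 8.37 in the 1 control, a difference of -0.13. Among the Cy3 samples it was 8.37 in the 1 forskolin sample, against 7.53 in the 2 controls, a difference of 0.84. These are also the values without control sample 2, the only Cy5 control (0.84), and without forskolin sample 2, the only Cy3 forskolin sample (-0.13), since 1 dye then sets the fold change. Leaving out control sample 3 gave 0.18, and leaving out both samples numbered 3 gave 0.12.

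miR-467a, reported to act against the angiogenesis inhibitor thrombospondin-1, was the other probe that could be tested. Over the empty spots it read 19.5, 109 and 80.0 in forskolin samples 1 to 3, against 40.2, 9.65 and 165 in control samples 1 to 3. The highest value was that of control sample 3, and the groups overlap. In SD units it stood at 4.28, 15.5 and 16.2 in forskolin samples, against 2.81, 5.22 and 11.6 in controls, so control sample 1 fell just short of 3 SD. Just outside the rule was miR-669a, at 2.06, 7.71 and 4.58 SD in forskolin samples, against 2.17, 1.76 and 8.24 in controls.

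The normalized log2 intensity of miR-467a was 6.74, 7.13 and 7.24 in forskolin samples 1 to 3, against 6.70, 7.06 and 6.95 in control samples 1 to 3. The forskolin sample was the higher of every pair with the same number, while the groups overlap. The same was so in every pair for 42 of the 167 tested probes, and in no pair for 47. The means were 7.04 ± 0.26 in forskolin cultures and 6.90 ± 0.19 in control cultures (SD, n = 3 each). In limma the log2 fold change was 0.12 (SE 0.24, adjusted p = 0.834). The fold change was 1.09 with a 95% interval from 0.730 to 1.61, which includes no change. Within dyes the difference was -0.069 among Cy5 samples and 0.30 among Cy3 samples. Scaled to the 75th percentile or the median of detected probes, the log2 fold change was -0.35 or -0.37. There the 167 tested probes had a median of -0.22 or -0.24, and without normalization of 0.48, beside 0.35 for miR-467a. Relative to that median miR-467a was -0.13 in these settings, which shift all probes of an array alike and so count as 1 alternative, and 0.13 in the fit reported.

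**Figure D3:**
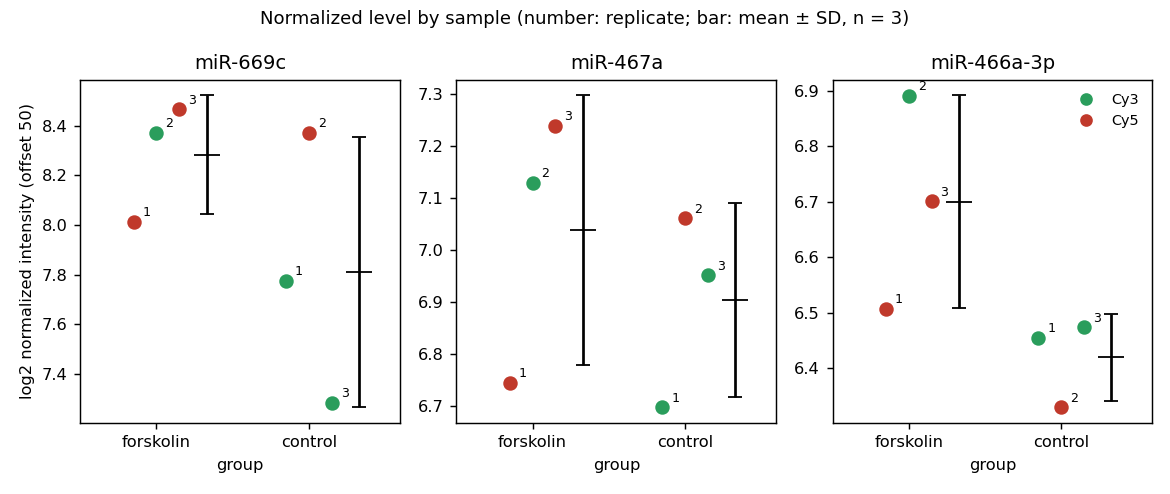
Quantile-normalized log2 intensity of miR-669c, miR-467a and miR-466a-3p in each forskolin and control sample, coloured by dye and numbered by replicate, with mean ± SD (n = 3) at the right of each group. The groups overlap for miR-669c and miR-467a, and each panel has its own vertical range.

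Neither probe passed an adjusted p of 0.05, nor an unadjusted p of 0.05, in limma. Of the 167 tested probes 10 passed the adjusted threshold (5.99%), 4 higher (2.4%) and 6 lower (3.59%), and 32 the unadjusted one (19.2%). Values of the 2 groups overlap for both cluster probes, and did not for 23.4% of tested probes. Scaled to the 75th percentile 7 were higher and 5 lower, with no normalization 5 and 0, and with the replicate number as a block the count was 30 (18%). The median log2 fold change was 0.24 over the 2 cluster probes and -0.01 over all tested probes. Of the 2, miR-467a entered the test through the forskolin arrays alone, which favours a positive value. Over all 44 probes with no filter the median was 0.01. No cluster probe tested was called in the 20 other settings, which tested 2 of the 44, except for 1 with detection asked on all 6 arrays and 44 with no filter. Samples of the same replicate number deviated together, and the limma fit with the number as a block gave adjusted p-values of 0.594 for miR-669c and 0.877 for miR-467a. Both had an SE of 0.298 there, because limma pooled the variance wholly over the tested probes. Those p-values and the count of 30 therefore do not reflect the spread of each probe itself.

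**Figure D4:**
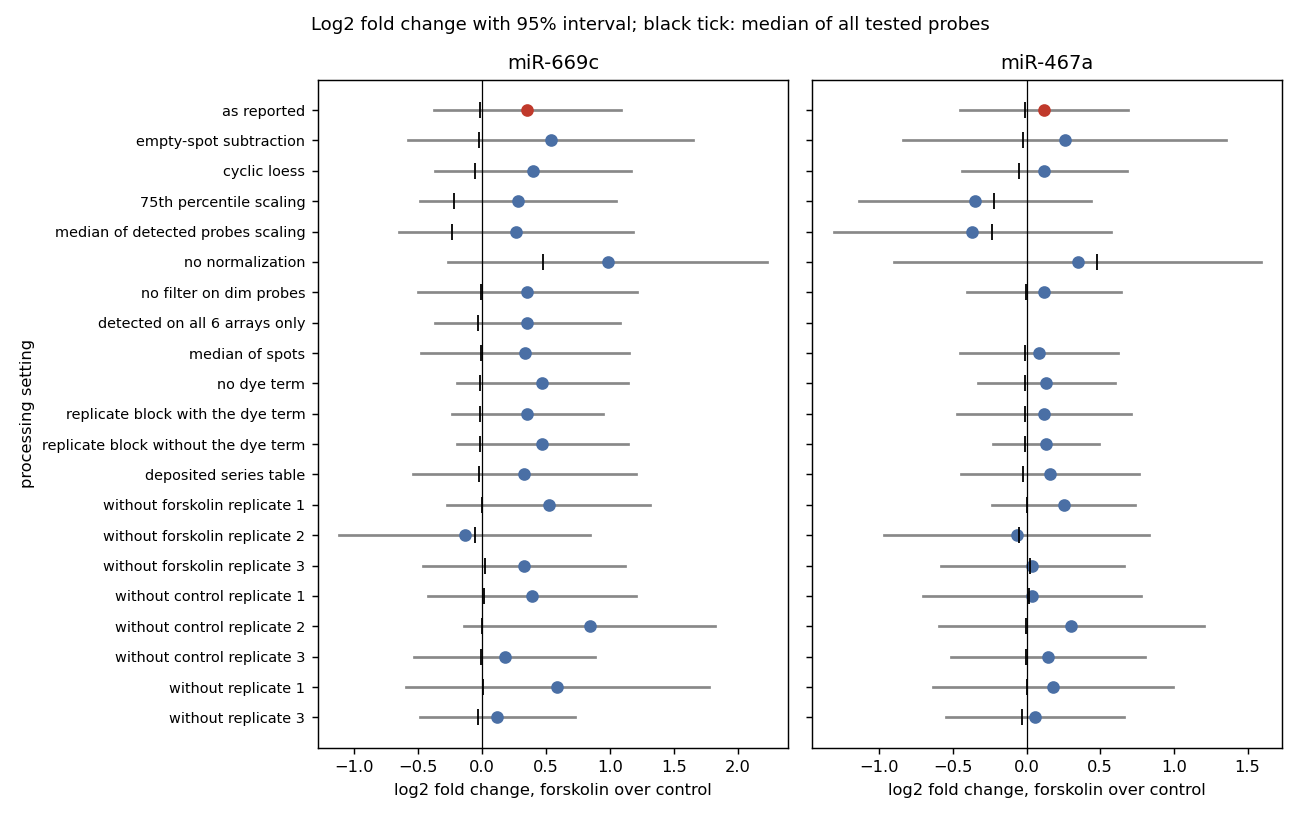
Log2 fold change of miR-669c and miR-467a, forskolin over control, with its 95% interval under each processing setting. Red marks the value reported, and the black tick the median of all tested probes in that setting. Every interval includes 0.

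Next by median signal came miR-467a*, miR-669a and miR-467b. miR-467a*, the other arm of the miR-467a hairpins, read 6.83, 63.8 and 31.6 over the empty spots in forskolin samples 1 to 3, against 25.1, 6.12 and 80.6 in control samples 1 to 3. It was detected in 2 forskolin and 2 control samples, and its highest value was again that of control sample 3. miR-467b, whose target shares 20 bases with miR-467a, read 7.17, 73.6 and 21.6 in forskolin samples, against 20.1, 4.59 and 59.3 in controls. The 3 probes miR-467a, miR-467a* and miR-467b had one order across the samples of each group. They were highest in forskolin sample 2 and control sample 3, and lowest in forskolin sample 1 and control sample 2. The median of all 599 probes over the empty spots had the same order. It was 2.45, 34.7 and 4.40 in forskolin samples 1 to 3, against 12.6, 2.39 and 27.4 in control samples 1 to 3. The order is therefore not particular to these probes, and it also follows the dyes. miR-669a, reported to act against MyoD in mouse progenitor cells, read 9.38, 54.5 and 22.5 in forskolin samples, against 31.0, 3.26 and 118 in controls. All of its 5 spots in control sample 3 lay between 94.2 and 131, so that value did not rest on 1 spot.

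With the dimmer 50% of the probes as background, 7 of the 44 probes were detected on all 3 forskolin arrays and 2 on all 3 control arrays, where 29.5% and 24.2% of all 599 probes were. The 7 were miR-669c, miR-467a, miR-467a*, miR-467b, miR-669a, miR-466a-3p and miR-466b-3-3p. The 2 in controls were miR-669c and miR-467a. Detection in one group and not in another is no test of a difference.

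The near-identical pair miR-466a-3p and miR-466b-3-3p had positive differences that did not pass after adjustment for the number of probes. Both were taken up because they passed over the dimmer probes on all 3 forskolin arrays. They did so on 1 and 0 control arrays, so this choice favours positive values. They share a run of 22 bases, so the pair does not give independent measurements. miR-466a-3p read 8.85, 86.3 and 30.1 over the empty spots in forskolin samples 1 to 3, against 23.2, 2.66 and 59.1 in control samples 1 to 3. Normalized, it was at 6.51, 6.89 and 6.70 in forskolin samples, against 6.46, 6.33 and 6.47 in controls, with every forskolin sample above every control. Values of the 2 groups did not overlap for 10.7% of all 599 probes and for 3 of the 44, the others being miR-297a*, which was higher, and miR-466d-5p, which was lower. Fitted with all 599 probes and no filter on dim ones, miR-466a-3p differed by 0.35 in log2, with SE 0.07, an unadjusted p of 0.00807 and an adjusted p of 0.332 in limma. Its means were 6.70 ± 0.19 in forskolin cultures and 6.42 ± 0.08 in control cultures (SD, n = 3 each). miR-466b-3-3p differed by 0.33, with SE 0.09 and an adjusted p of 0.435, its means being 6.68 ± 0.20 in forskolin cultures and 6.41 ± 0.07 in control cultures (SD, n = 3 each). Its groups overlap, and the forskolin sample was higher in 2 of the 3 pairs. The unadjusted p, 0.00807 and 0.0228 for the pair, was 0.0672 and 0.0987 with cyclic loess, and 0.0908 and 0.107 with the replicate block without the dye term. With the block and the dye term it was 0.0256 for miR-466a-3p and 0.0764 for miR-466b-3-3p. Neither probe was over the empty spots by 3 SD in forskolin sample 1, control sample 1 or control sample 2.

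The fitted value with the dye term is the mean of the differences within the 2 dyes, each of which has a lone sample in 1 group. For miR-466a-3p the difference was 0.27 among the Cy5 samples and 0.43 among the Cy3 samples, and for miR-466b-3-3p it was 0.27 and 0.39. Scaled to the 75th percentile both had negative values, -0.35 and -0.34, where the median of all 599 probes was -0.66. Over the empty spots, the other 3 probes with their seed, miR-466d-3p, miR-467g and miR-297a*, were each detected in forskolin sample 2 only, where 43 of the 44 probes passed. With the dimmer probes as background, by which the pair was taken up, miR-466d-3p was detected on 1 forskolin array, and miR-467g and miR-297a* on none. An array of this kind cannot tell whether miR-466a-3p and miR-466b-3-3p report 1 strand or 2.

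Over all 44 probes in the fit without a filter, 24 differences were positive and 20 negative, and the median was 0.01. The median over all 599 probes was -0.003. The values of the 44 ran from -0.08 (miR-466k) to 0.36 (miR-669c). None of the 44 passed an adjusted p of 0.05 in that limma fit, and 3 passed an unadjusted p of 0.05, which were miR-466a-3p, miR-466b-3-3p and miR-467e. Of all 599 probes 1 passed the adjusted threshold (0.167%) and 47 the unadjusted one (7.85%). The offset of 50 added before the logarithm holds dim probes near a common value, so these small differences understate any change in them.

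Some apparent detections came from 1 spot. miR-297b-5p read 51.2 over the empty spots in forskolin sample 3 and 137 in control sample 3, both detected. The last of its 5 spots read 251 in forskolin sample 3 and 604 in control sample 3, while the medians over the 5 spots were 1.81 and 21.8. That spot lay 2.98 and 1.87 log2 units above the median of the other spots of the probe. In forskolin sample 1 the third spot of miR-466j read 75.5, where its other 4 spots read between -0.5 and 6.9, and in control sample 1 the same spot read 145. The probe was detected in forskolin sample 1, and there the value rested on that spot. By the median of their 5 spots, neither probe was over 3 SD in those samples.

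**Figure D5:**
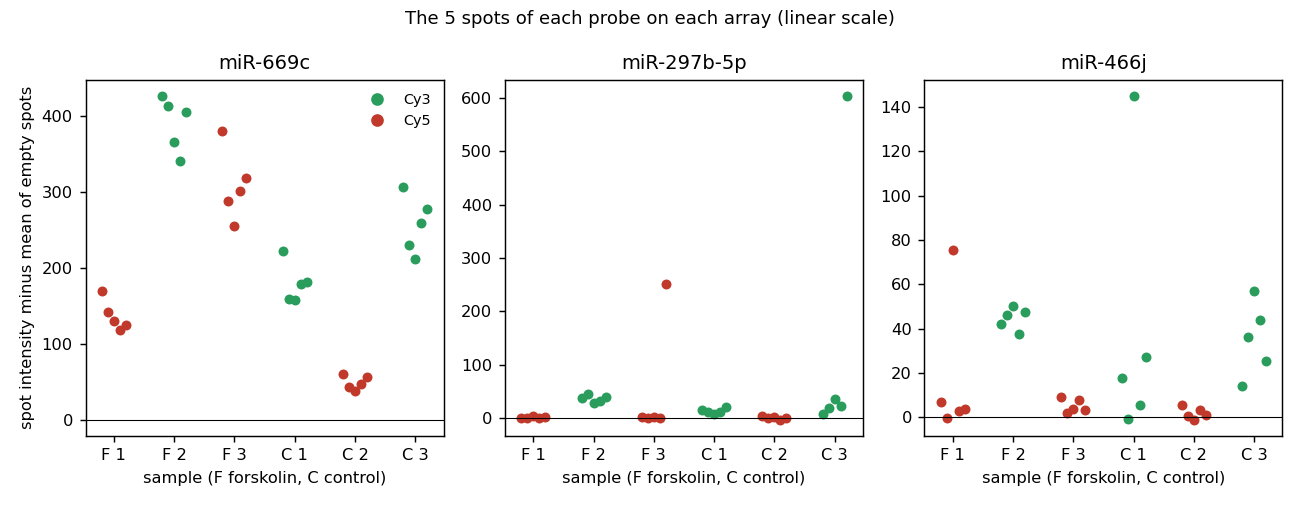
Intensity of each of the 5 spots of miR-669c, miR-297b-5p and miR-466j less the mean of the empty spots, on the forskolin (F) and control (C) arrays, coloured by dye. The 5 spots of miR-669c lie together on each array, while 1 spot of miR-297b-5p is high on both arrays of replicate 3 and 1 spot of miR-466j on both arrays of replicate 1.

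Other groups of probes give a scale for these counts. Of the imprinted Dlk1-Dio3 cluster, another large miRNA cluster known from placenta, 1 of 67 probes (1.49%) could be tested. It was miR-329, with a log2 fold change of -0.61 (SE 0.32, adjusted p = 0.379 in limma). Of the 9 probes outside the cluster whose target holds UGUGUG, 3 (33.3%) were tested, let-7b, miR-206 and miR-574-5p, with log2 fold changes of 0.17, -0.24 and 0.25, none past the threshold. Of 21 probes for miRNAs of pluripotent or trophoblast cells 1 was tested, miR-290-5p, with normalized log2 values of 7.45, 7.02 and 8.76 in forskolin samples, against 6.70, 6.37 and 7.93 in controls. The groups overlap, and its log2 fold change in limma was 0.72 (SE 0.60, adjusted p = 0.592). The probe was detected on 3 forskolin arrays and 1 control array, so it entered the test through the forskolin arrays alone, which favours a positive value. The forskolin sample was higher in all 3 pairs with the same number, as was so for 42 of the 167 tested probes. miR-290-3p and miR-292-3p, which share the seed of miR-467a, were detected in forskolin sample 2 only.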

How the data were processed

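Small RNAs of 3 forskolin and 3 control cultures were poly(A)-tailed and ligated to a tag for Cy3 or Cy5 staining by LC Sciences, per the labels' protocols. Each deposited spot file gives the intensity of every spot, with no background subtracted, per the file headers. The scanner, its software and the series table's normalization were not given in the sources used here. That table, also an intensity, has column medians of 11, 11 and 10 in forskolin samples and 10, 11 and 8 in controls, and it served as an alternative. Its log2 values correlated with spot values less the empty spots at 0.996 or above.

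The 3968 spots of each array went through normexp (offset 50), each probe took the mean of its 5 spots, and quantile normalization followed on log2 values of 599 probes (limma 3.58.1, R 4.3.3). Probes detected on all arrays of a group, 167, were tested by limma's lmFit and eBayes with treatment and dye, two-sided, at a Benjamini-Hochberg adjusted p under 0.05. Deviations from the group means correlated at 0.397, 0.473 and 0.359 between samples of the same number, and 18 stray spots (over 1 log2 unit off the probe's other spots) were shared within those 3 pairs and 0 within the 12 other pairs, so the pairing rests on these data. Alternatives covered background, scaling, filter, spot summary, dye term, replicate block, the series table and left-out samples.

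The steps were run on simulated data with no dye effect on the signal and no shared effect of samples of the same number. The known changes there were larger than those fitted for miR-669c and miR-467a, so that run does not bear on changes of their size. Cluster probes, lists and the rule for named probes (every detected probe in full, and the 10 highest and 5 lowest by median signal) were chosen with earlier results of these data known. Probes named beyond that rule were picked with their values in view. RefSeq tables (GRCm38.p6) gave gene names, neighbours and the 2 mature strands with coordinates.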

Additional observations from a re-analysis of the deposited data

How the results depend on the processing

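Signal over background limits what can be said of 42 of the 44 cluster probes, and 6 arrays with unbalanced dyes limit the rest. No tested cluster probe (2 in most, 1 or 44 under other filters) was called by limma under 20 alternatives, of which the 2 that leave out both samples of a replicate number were chosen after seeing the data. Without replicate 2 dye and treatment coincide, and no such fit was made. The count of 10 called probes among all tested was 4 with empty-spot subtraction, 5 with no normalization, 5 with the median of spots, 1 with no filter, 18 without the dye term, 30 with the replicate block and dye term, and 24 with the replicate block alone. Leaving out samples gave counts from 0 to 24. It was 0 without forskolin 2 and 0 without control 2 (22 and 20 at an unadjusted p under 0.05), 3 without control 3, 0 without both samples of replicate 1 (17 unadjusted) and 24 without both of replicate 3. The cause was not tested, and the fit behind the count of 30 pooled the variance wholly over the tested probes. The count of 2 detected cluster probes was 1 at 5 SD and 7 with the dimmer 50% of the probes as background. Leaving out 1 sample gave 2 to 13, the 13 without forskolin 1. miR-669c ranged from -0.13 to 0.98 in log2 fold change and was above 0 in 19 of 20 alternatives, the exception being without forskolin 2. Leaving out 1 sample gave it -0.13 to 0.84 and miR-467a -0.069 to 0.30. The adjusted p of miR-669c ranged from 0.281 to 0.971. miR-467a was above 0 in 16 of 19 alternatives, and was -0.35 at the 75th percentile, -0.37 at the median of detected probes and below 0 also without forskolin 2, with adjusted p from 0.472 to 0.985. Relative to the median of all tested probes, it was -0.13 at both scalings and with no normalization, and miR-669c was 0.50. These settings shift all probes of an array alike, so in each of these tallies of signs they amount to 1 alternative. miR-466a-3p and miR-466b-3-3p, with no filter, were above 0 in 16 of 18 alternatives each, chosen after seeing the data. Both probes were taken up through the forskolin arrays alone, which favours positive values, and their tallies are not independent. They were 1.34 and 1.26 with empty-spot subtraction, -0.35 and -0.34 at the 75th percentile and -0.36 and -0.36 at the median of detected probes, and the lowest adjusted p of either was 0.0632. The replicate block changed no call of a cluster probe.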

Other observations

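miR-669f read 2.96, 38.5 and 3.02 over the empty spots in forskolin samples 1 to 3, against 12.5, 1.75 and 90.2 in control samples 1 to 3. It was detected in forskolin sample 2 and control sample 3, and in control sample 3 all 5 of its spots lay between 54.3 and 138. miR-466c-5p likewise had its highest value in control sample 3, with 5.37, 47.0 and 13.0 in forskolin samples 1 to 3, against 18.8, 2.66 and 86.9 in control samples 1 to 3. A highest value in control sample 3 is not particular to miR-669f and miR-466c-5p, since miR-467a, miR-467a* and miR-669a had theirs there too. Among the controls, the median of all probes over the empty spots was also highest in that sample.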
